A study of Mus musculus with 12 samples.

Results

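The expression of 9 integrin subunit genes was measured in mouse calvarial osteoblast cultures: the collagen-binding α subunits Itga1, Itga2, Itga10 and Itga11, the α subunits Itga5, Itga8 and Itgav that recognise the RGD tripeptide, and the β subunits Itgb1 and Itgb5. They and the related lists below were chosen by name, with earlier results of these data known. The shares of all genes given beside their counts are therefore a reference and not a test of the set. All 9 are among the 49585 genes of the count table, and all 9 were among the 16318 genes with enough counts to be tested. RNA was sequenced from 12 libraries in 4 groups of 3: Bcl3-/- and wild-type (WT) cultures after 3 days, and Bcl3-/- and WT cultures after 1 day of osteogenic differentiation. The mice were C57BL/6J, the Bcl3-/- mice carried the deletion as their genotype with no cell-type driver named, and the WT mice were littermates. Cells were taken from the calvariae of pups aged 3 to 5 days, with the bones of 1 to 3 pups combined in a replicate by the labels, or of 3 by the methods text, and every group received 50 µg/mL of L-ascorbic acid and 2 mM of β-glycerophosphate. By the library codes there were 6 cultures (3 of each genotype), sampled on both days. The comparisons ask how the level of each subunit differs between the genotypes on each day, how it changes with time in each genotype, and whether that change differs between genotypes.

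Integrins are receptors made of 1 α and 1 β subunit that fix cells to the extracellular matrix and link it to the actin cytoskeleton. The collagen-binding α subunits carry an inserted domain that recognises triple-helical collagen, and each of them pairs with β1. The subunits α5 and α8 also pair with β1, whereas αv pairs with several β subunits, among them β1 and β5. The receptor α5β1 is the classical receptor of fibronectin, on which osteoblast precursors spread, and αvβ5 binds vitronectin and other RGD proteins. Osteoblasts deposit a matrix rich in type I collagen as they differentiate, and adhesion to collagen and fibronectin is known to affect their survival and differentiation.

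Bcl3 encodes a nuclear regulator of NF-κB and is the gene targeted in these mice. On day 3 its level was 10.2, 9.72 and 8.31 CPM, its counts scaled to the library's gene total after TMM normalization, in the libraries labelled Bcl3-/-, against 14.8, 15.9 and 12.8 CPM in WT. On day 1 it was 17.5, 19.7 and 19.2 CPM in the libraries labelled Bcl3-/-, against 18.0, 21.8 and 17.8 CPM in WT, with overlapping groups. The counts of Bcl3 therefore did not separate the genotypes on day 1, the log2 fold change being -0.03 with an SE of 0.12 (edgeR adjusted p = 0.887), and were lower on day 3, at -0.62 (SE 0.12, edgeR adjusted p = 0.00863). On log2(FPKM + 1) over all genes with a nonzero FPKM the day 3 difference was -0.58, short of the threshold (limma adjusted p = 0.0603), and it was called when genes under 1 FPKM were removed. Where in the gene these reads fell cannot be read from counts. Each direction by genotype below rests on the labels, and Bcl3-/- stands for libraries labelled so.

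Gene counts summed to between 20009732 and 41953891 per library. The 12 osteoblast markers summed to 80633 to 86727 CPM in day 3 Bcl3-/-, 78283 to 84955 CPM in day 3 WT, 65360 to 68581 CPM in day 1 Bcl3-/- and 38265 to 55343 CPM in day 1 WT libraries, and none was at 0 in a whole group. Col1a1 is 1 of the 12 and made up a large part of the sum in day 1 WT, by its values given below. There the sum follows this collagen more than the other markers. The 12 macrophage markers summed to 492 to 979, 787 to 1194, 385 to 420 and 336 to 536 CPM in the same order of groups, the 10 smooth muscle markers to 2172 to 2452, 2779 to 3250, 2855 to 3011 and 3243 to 3578 CPM, and the 10 fibroblast and tendon markers to 2430 to 2839, 1659 to 2227, 1375 to 1550 and 928 to 1304 CPM. The 11 chondrocyte markers summed to 407 to 521, 424 to 1594, 842 to 1181 and 814 to 2541 CPM. Pericyte markers stayed between 564 and 752 CPM over all libraries, with Higd1b at 0 in 2 groups. Endothelial, epithelial and platelet markers reached at most 22.6, 8.82 and 11.2 CPM. In these bulk cultures a change in the cells that carry a subunit cannot be told apart from a change in RNA per cell, and the part of other cell types in the results was not tested.

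Per transcript length the 9 genes spanned more than 3 orders of magnitude. FPKM values are fragments scaled to transcript length and library size, and so allow genes to be ranked. Itgb1 was the highest in every group, at 429 ± 43.4 in day 3 Bcl3-/-, 528 ± 55.5 in day 3 WT, 554 ± 14.4 in day 1 Bcl3-/- and 835 ± 144 in day 1 WT libraries (mean ± SD, n = 3). Itgb5 was next in every group, at 244 ± 29.7, 273 ± 23.1, 205 ± 17.3 and 167 ± 27.5 FPKM in the same order, and the ranges of these 2 genes did not overlap in any group. Itgav, Itga5 and Itga11 followed, and their order changed between groups. In day 3 Bcl3-/- libraries Itga11 (64.7 FPKM) and Itgav (61.9 FPKM) overlapped and both lay above Itga5 (43.3 FPKM). In day 1 WT libraries Itga5 (116 FPKM) and Itgav (107 FPKM) overlapped and both lay above Itga11 (45.8 FPKM). Itga1 and Itga8 stood lower, between 6.04 and 10.4 FPKM and between 2.50 and 7.59 FPKM over the 12 libraries, and Itga10 and Itga2 were the lowest, with at most 1.54 and 1.15 FPKM.

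**Figure D1:**
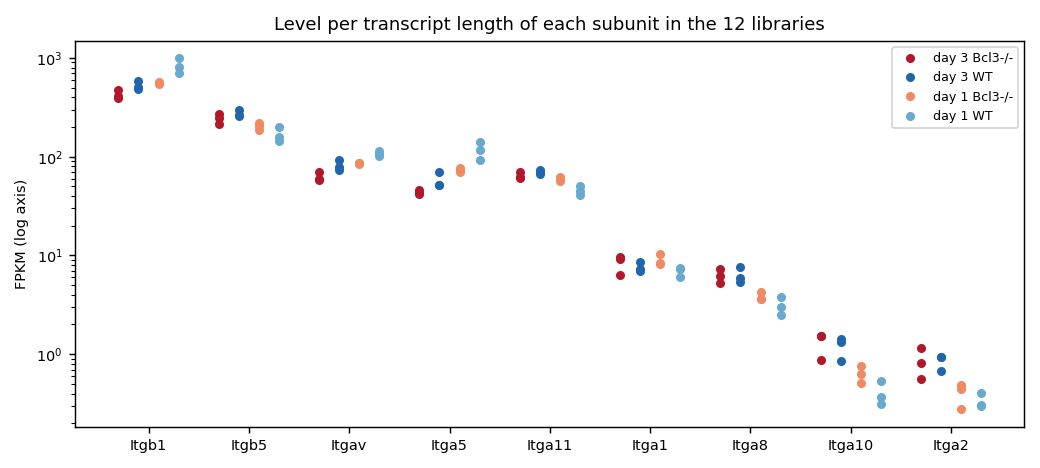
FPKM of each subunit on a log axis in the 12 libraries, 1 point per library, with the 4 groups side by side for each gene and genes ordered by their mean. Itgb1 and Itgb5 lie above all α subunits, the 3 genes Itgav, Itga5 and Itga11 lie close together, and Itga10 and Itga2 stay at or below 1.54 FPKM.

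Over time the 9 genes moved in opposite directions. In WT, 5 of 9 were higher on day 3 than on day 1 (Itga10, Itga2, Itga8, Itgb5 and Itga11) and 2 of 9 were lower (Itga5 and Itgb1), where 20.6% of all genes tested were called higher and 17.9% lower at a Benjamini-Hochberg adjusted p under 0.05. In Bcl3-/-, 4 of 9 were higher on day 3 (Itga2, Itga10, Itga8 and Itgb5), beside 16.2% of all genes, and 2 of 9 were lower (Itga5 and Itgav), beside 17.2%. The median log2 fold change of the 9 was 0.68 in WT and 0.19 in Bcl3-/-, with a median of 0.00 over all genes in both. The Bcl3-/- count of 6 was 3 without day 3 Bcl3-/- replicate 1 or day 1 Bcl3-/- replicate 2 or 3, and 3 with limma on log2(FPKM + 1). When each culture was followed from day 1 to day 3, all 3 WT and all 3 Bcl3-/- cultures changed in the same direction for every subunit except Itga1. The macrophage markers were also higher on day 3, with 10 of 12 called in WT and 8 of 12 in Bcl3-/-, where 1 was lower, and so were 8 and 6 of 10 fibroblast and tendon markers, with 1 lower in Bcl3-/-. Of the 12 osteoblast markers, 5 were higher and 2 lower on day 3 in WT, and 5 higher and 3 lower in Bcl3-/-.

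By genotype, Itga5 and Itgb1 were lower and the collagen-binding Itga11 was higher in Bcl3-/- on day 1. The β1 subunit pairs with α5 and also with α11. Itga11 was the 1 of 9 called higher, beside 9.03% of all genes, and Itga5 and Itgb1 were the 2 of 9 called lower, beside 6.26%. The median log2 fold change of the 9 was 0.31, beside 0.00 over all genes, and 7 of 9 had an unadjusted p under 0.05. The share of all genes at an unadjusted p under 0.05 is not given here. This count and the like counts below are therefore not set against it. Of the 12 osteoblast markers, 5 were higher and 1 was lower in Bcl3-/- on day 1, with a median of 0.42, and 3 were higher and 1 was lower on day 3. The fibroblast and tendon markers moved as well, with 5 of 10 higher and 1 lower on day 1 (median 0.62) and 3 higher and 1 lower on day 3, where 0 to 2 of 10 were called without any 1 of day 3 Bcl3-/- replicates 2 and 3 and day 3 WT replicates 1 and 2. Of 8 pericyte markers tested, 3 were higher and 1 lower on each day, and of 10 chondrocyte markers 2 were higher on day 1 and 2 higher and 1 lower on day 3. Of 12 macrophage markers 2 were lower on day 3. On day 3 edgeR called 0 of 9, beside 4.78% of all genes called higher and 5.60% called lower. Here 3 of 9 (Itgav, Itga5 and Itgb1) had an unadjusted p under 0.05, all lower in Bcl3-/-, DESeq2 called Itgav, and limma on log2(FPKM + 1) called 0, or Itgav when genes under 1 FPKM were removed. The difference between the time courses of the genotypes was called for 0 of 9 by edgeR, beside 1.12% of all genes in either direction, with 3 of 9 (Itga11, Itgb5 and Itga10) at an unadjusted p under 0.05. DESeq2 called Itga11 here and limma on FPKM called 0. Without day 1 WT replicate 3 edgeR called 6 of 9 on day 1 and 1 of 9 in the difference between time courses, and without day 3 Bcl3-/- replicate 3 it called 1 of 9 on day 3. The shares of all genes called in these fits are not given here.

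**Figure D2:**
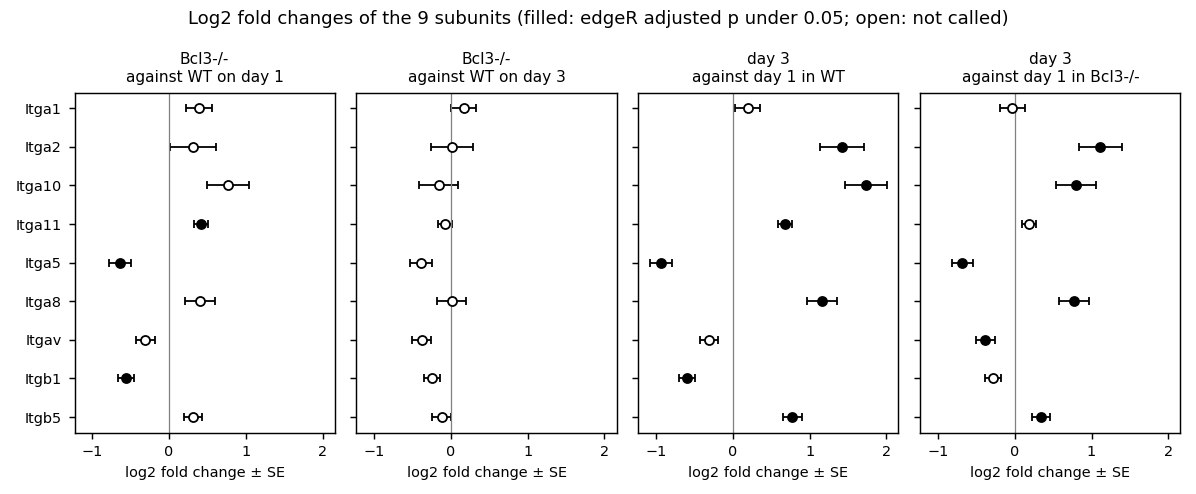
Log2 fold change with its standard error for each subunit in the 4 comparisons, filled where the edgeR adjusted p is under 0.05. Itga5 and Itgb1 lie left of 0 in every comparison, and the day 3 genotype panel holds no filled point.

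Among the collagen-binding subunits, Itga11 was by far the most abundant. It encodes α11, which with β1 forms a receptor of fibrillar collagen on mesenchymal cells, and lies on chromosome 9 (GRCm38 chr9:62677826-62783982, plus strand, 30 exonic blocks). On day 3 it had 319, 314 and 369 CPM in Bcl3-/- libraries, against 374, 336 and 349 CPM in WT. On day 1 it had 274, 296 and 308 CPM in Bcl3-/- libraries, against 196, 216 and 247 CPM in WT. All 3 day 1 WT libraries were below all others, and the genotypes overlapped on day 3. Itga11 was higher in Bcl3-/- on day 1 by 0.41 on the log2 scale (SE 0.09, edgeR adjusted p = 0.0117), and the difference on day 3 was -0.08 (SE 0.09, edgeR adjusted p = 0.634). It rose with time in WT, at 0.68 (SE 0.09, edgeR adjusted p = 0.000158), whereas the change in Bcl3-/- was 0.19 (SE 0.09, edgeR adjusted p = 0.139). The difference between these changes, -0.49 (SE 0.13), had an edgeR adjusted p of 0.117 and a DESeq2 adjusted p of 0.0392, and without day 1 WT replicate 3 it was -0.56 with an edgeR adjusted p of 0.0253. The day 1 call is lost without day 1 WT replicate 1 (0.33, edgeR adjusted p = 0.0533) or without day 1 Bcl3-/- replicate 3 (0.37, edgeR adjusted p = 0.0517).

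Itga1 encodes α1, a receptor of type IV and fibrillar collagens, and lies beside Itga2 on the minus strand of chromosome 13 (chr13:114953096-115101964, 30 exonic blocks). The day 3 values were 38.1, 58.4 and 57.0 CPM in Bcl3-/- libraries, against 51.8, 43.5 and 41.4 CPM in WT. The day 1 values were 46.6, 60.8 and 49.2 CPM in Bcl3-/- libraries, against 41.4, 34.3 and 43.6 CPM in WT. The day 1 groups did not overlap and the day 3 groups did, with day 3 Bcl3-/- replicate 1 the lowest of its group. Itga1 passed the test in no comparison: the log2 fold change was 0.39 for genotype on day 1 (SE 0.16, edgeR adjusted p = 0.133), 0.17 on day 3, 0.20 with time in WT and -0.03 with time in Bcl3-/-. Of the gene models that overlap Itga1, Pelo shares no exon with it, and Gm49395, not used here, shares 685 exonic bases.

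Itga2 encodes α2, the collagen receptor also known from platelets, and lies at chr13:114833081-114932100 with 31 exonic blocks. On day 3 it had 2.44, 3.53 and 5.05 CPM in Bcl3-/- libraries, against 3.98, 3.99 and 2.86 CPM in WT. The day 1 values were 2.00, 1.84 and 1.15 CPM in Bcl3-/- libraries, against 1.63, 1.21 and 1.25 CPM in WT. Every day 3 library was above every day 1 library, and the genotypes overlapped on both days. The rise with time was 1.42 in WT (SE 0.29, edgeR adjusted p = 0.00214) and 1.12 in Bcl3-/- (SE 0.29, edgeR adjusted p = 0.0104). The Bcl3-/- call is lost on FPKM values of all genes with a nonzero FPKM, at 0.38 on the log2(FPKM + 1) scale with a limma adjusted p of 0.0686, and Itga2 was not tested when genes under 1 FPKM were removed.

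Itga10 encodes α10, a collagen receptor best known from chondrocytes, and lies at chr3:96645584-96664519 (plus strand, 29 exonic blocks). The day 3 values were 3.97, 3.43 and 2.84 CPM in Bcl3-/- libraries, against 4.05, 2.85 and 4.59 CPM in WT. The day 1 values were 2.17, 1.74 and 1.98 CPM in Bcl3-/- libraries, against 1.09, 0.774 and 1.60 CPM in WT. The day 1 WT libraries were the lowest 3 of the 12, and the day 3 groups overlapped. Itga10 showed the largest fold change of the 9 genes, a rise in WT at 1.73 (SE 0.27, edgeR adjusted p = 0.000355), beside 0.80 in Bcl3-/- (SE 0.26, edgeR adjusted p = 0.032). The genotype difference on day 1 was 0.77 (SE 0.28, edgeR adjusted p = 0.08), which became a call without day 1 WT replicate 3 (1.12, edgeR adjusted p = 0.0171) and with DESeq2 (adjusted p = 0.0497). The Bcl3-/- rise is lost without any 1 of day 1 Bcl3-/- replicates 1, 2 and 3 or day 3 Bcl3-/- replicates 1 and 2 (0.68 to 0.89, edgeR adjusted p = 0.0526 to 0.101) and on FPKM values of all genes with a nonzero FPKM (limma adjusted p = 0.0635), but is kept when genes under 1 FPKM are removed. The gene model Gm42957 shares 1739 exonic bases with Itga10 and had 58 counts over all libraries, against 988 for Itga10, so reads in the shared part may be missing from both.

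Of the RGD-binding subunits, Itga5 fell with time in both genotypes and was lower in Bcl3-/- on day 1. It encodes α5, which with β1 forms the fibronectin receptor, and lies at chr15:103344286-103366763 (minus strand, 30 exonic blocks). On day 3 it had 186, 191 and 211 CPM in Bcl3-/- libraries, against 311, 231 and 226 CPM in WT. On day 1 it had 296, 329 and 316 CPM in Bcl3-/- libraries, against 583, 488 and 396 CPM in WT. The genotypes did not overlap on either day, and the widest spread was in day 1 WT, where replicate 1 was the highest and replicate 3 the lowest. The difference by genotype was -0.64 on day 1 (SE 0.14, edgeR adjusted p = 0.0104) and -0.39 on day 3 (SE 0.14, edgeR adjusted p = 0.102). With time Itga5 fell by 0.93 on the log2 scale in WT (SE 0.14, edgeR adjusted p = 0.000309) and by 0.68 in Bcl3-/- (SE 0.14, edgeR adjusted p = 0.00329). The difference between the 2 changes was 0.25 (SE 0.20, edgeR adjusted p = 0.702).

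Itga8 encodes α8, a receptor of nephronectin, fibronectin and other RGD proteins, and lies at chr2:12106632-12301922 (minus strand, 33 exonic blocks). The day 3 values were 35.1, 31.1 and 43.2 CPM in Bcl3-/- libraries, against 34.8, 30.4 and 43.2 CPM in WT. The day 1 values were 24.8, 18.7 and 20.6 CPM in Bcl3-/- libraries, against 15.7, 12.1 and 20.7 CPM in WT. The day 3 values of the genotypes lay almost on each other, and every day 3 library was above every day 1 library. Itga8 rose with time at 1.16 in WT (SE 0.20, edgeR adjusted p = 0.000671) and at 0.77 in Bcl3-/- (SE 0.20, edgeR adjusted p = 0.0103). By genotype it was 0.40 on day 1 (SE 0.20, edgeR adjusted p = 0.206), called without day 1 WT replicate 3 (0.63, edgeR adjusted p = 0.0404), and 0.01 on day 3 (SE 0.19, edgeR adjusted p = 0.983). Itga8 thus moved against Itga5 with time, although both subunits pair with β1 and bind RGD ligands. The antisense gene model E030013I19Rik shares 372 exonic bases with Itga8 and had 87 counts over all libraries, against 10372 for Itga8, and the library kit does not mark strand.

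Itgav encodes αv, the shared partner of several β subunits, and lies at chr2:83724397-83806916 (plus strand, 32 exonic blocks). On day 3 it had 354, 353 and 462 CPM in Bcl3-/- libraries, against 591, 445 and 485 CPM in WT. The day 1 values were 496, 520 and 508 CPM in Bcl3-/- libraries, against 685, 577 and 622 CPM in WT. The genotypes did not overlap on day 1, and on day 3 only Bcl3-/- replicate 3 reached into the WT range. Itgav fell with time in Bcl3-/- by 0.38 on the log2 scale (SE 0.12, edgeR adjusted p = 0.0294), which was not called without any 1 of day 1 Bcl3-/- replicates 2 and 3 or day 3 Bcl3-/- replicates 1 and 2 (edgeR adjusted p = 0.0621 to 0.105). The change in WT was -0.31 (SE 0.12, edgeR adjusted p = 0.0619), and with the culture as a block it passed the test (-0.32, edgeR adjusted p = 0.0163), as it did with DESeq2 and limma and without day 1 WT replicate 2, day 3 WT replicate 1 or day 3 Bcl3-/- replicate 3 (-0.43 to -0.31). By genotype the difference was -0.31 on day 1 (SE 0.12, edgeR adjusted p = 0.114) and -0.38 on day 3 (SE 0.12, edgeR adjusted p = 0.0673). Without day 3 Bcl3-/- replicate 3 the day 3 difference was -0.52 with an edgeR adjusted p of 0.017 and the day 1 difference passed at 0.0498, and on day 3 the culture block gave 0.0496. Gm13684 on the opposite strand shares 634 exonic bases and had 339 counts over all libraries, against 195346 for Itgav.

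The β subunits moved in opposite directions. Itgb1 encodes β1, the partner of all 4 collagen-binding subunits and of α5 and α8, and lies at chr8:128685654-128733200 (plus strand, 17 exonic blocks). The day 3 values were 1493, 1578 and 1793 CPM in Bcl3-/- libraries, against 2118, 1805 and 1850 CPM in WT. The day 1 values were 1921, 1990 and 2009 CPM in Bcl3-/- libraries, against 3373, 2823 and 2523 CPM in WT. The genotypes did not overlap on either day, and on day 3 the gap between the highest Bcl3-/- and the lowest WT library was narrow. Itgb1 was lower in Bcl3-/- with a log2 fold change of -0.56 on day 1 (SE 0.11, edgeR adjusted p = 0.00524) and differed by -0.25 on day 3 (SE 0.11, edgeR adjusted p = 0.163). With time it fell by 0.59 on the log2 scale in WT (SE 0.11, edgeR adjusted p = 0.000977), and the change in Bcl3-/- was -0.28 (SE 0.11, edgeR adjusted p = 0.0595), which passed with the culture as a block (-0.29, edgeR adjusted p = 0.0108) and without day 1 WT replicate 1, day 1 WT replicate 3 or day 3 Bcl3-/- replicate 3 (edgeR adjusted p = 0.0251 to 0.0311).

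Itgb5 encodes β5, which pairs with αv, and lies at chr16:33829665-33949338 (plus strand, 18 exonic blocks). On day 3 it had 714, 616 and 779 CPM in Bcl3-/- libraries, against 722, 750 and 819 CPM in WT. On day 1 it had 594, 498 and 573 CPM in Bcl3-/- libraries, against 387, 424 and 530 CPM in WT. The days did not overlap in either genotype, whereas the genotypes overlapped on both days. Itgb5 rose with time at 0.77 in WT (SE 0.12, edgeR adjusted p = 0.000384). In Bcl3-/- the rise was 0.34 (SE 0.12, edgeR adjusted p = 0.0469), close to the threshold and lost without any 1 of 9 libraries (edgeR adjusted p = 0.0534 to 0.169), all except day 1 WT replicates 1 and 3 and day 3 Bcl3-/- replicate 2, and on FPKM values (0.25, limma adjusted p = 0.295). By genotype it was 0.31 on day 1 (SE 0.12, edgeR adjusted p = 0.105), called without day 1 WT replicate 3 (0.46, edgeR adjusted p = 0.0154), and -0.12 on day 3 (SE 0.12, edgeR adjusted p = 0.57).

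**Figure D3:**
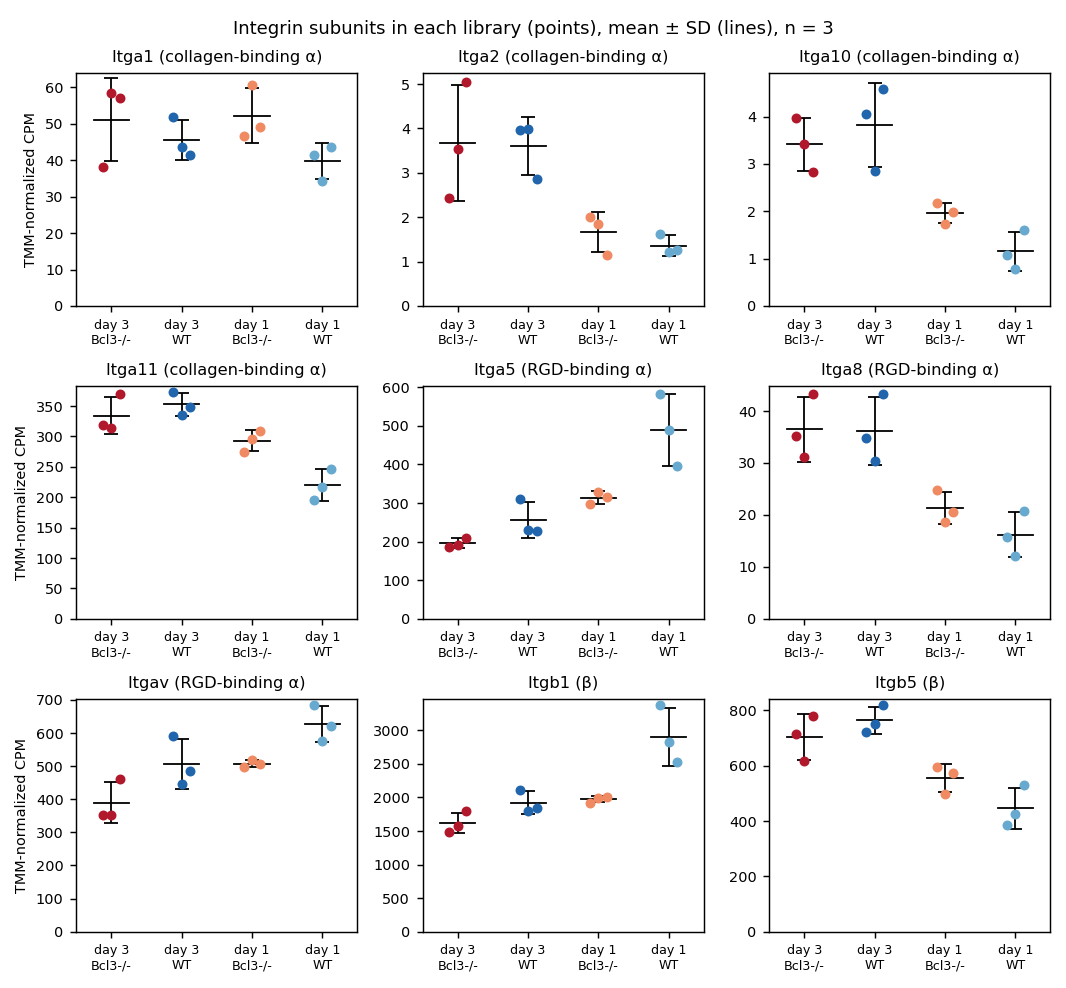
TMM-normalized CPM of each subunit in the 12 libraries (points), with the mean and SD of each group of 3 (lines) and every axis from 0. Itga5, Itgav and Itgb1 are highest in day 1 WT, at up to 583, 685 and 3373 CPM, where Itga10, Itga11 and Itgb5 are lowest.

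The genotype difference on day 1 and the time course in WT share the 3 day 1 WT libraries, so both move when those libraries move, and no test was made between them. Side by side, the log2 fold changes of day 1 genotype and of WT time were 0.41 and 0.68 for Itga11, -0.64 and -0.93 for Itga5, -0.56 and -0.59 for Itgb1, and 0.31 and 0.77 for Itgb5. Within the day 1 WT group, replicate 1 was the highest in Itga5 and Itgb1 and the lowest in Itga11 and Itgb5, and replicate 3 was at the other end for these 4 genes. The same replicates ran in that order in Col1a1, the α1 chain of type I collagen, with 22628, 29643 and 33272 CPM in replicates 1, 2 and 3.

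The opposite directions shifted the balance between subunits, which was summarised in 3 ratios of FPKM chosen after the values had been seen and given without a test. The 4 collagen-binding subunits made up 40.3, 40.7 and 39.9% of the summed FPKM of the 7 α subunits in day 3 Bcl3-/- libraries, against 33.4, 36.5 and 36.2% in day 3 WT. On day 1 they made up 29.2, 30.3 and 30.8% in Bcl3-/- libraries, against 16.1, 19.0 and 22.7% in WT. The 4 groups did not overlap, with the share highest in day 3 Bcl3-/- and lowest in day 1 WT. Most of this share was Itga11, and the ratio of Itga5 to Itga11 was 0.67 ± 0.0227 in day 3 Bcl3-/- and 0.825 ± 0.109 in day 3 WT libraries, beside 1.22 ± 0.049 in day 1 Bcl3-/- and 2.60 ± 0.79 in day 1 WT (mean ± SD, n = 3). The ratio of Itgb1 to Itgb5 was 1.77 ± 0.176, 1.95 ± 0.314, 2.72 ± 0.305 and 5.16 ± 1.61 in the same order of groups, with overlapping genotypes on day 3. Computed instead from CPM per kilobase of annotated exon, the collagen-binding share was 45.4 to 46.5%, 38.5 to 42.7%, 34.1 to 35.7% and 18.1 to 26.5% in the same order, again without overlap.

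**Figure D4:**
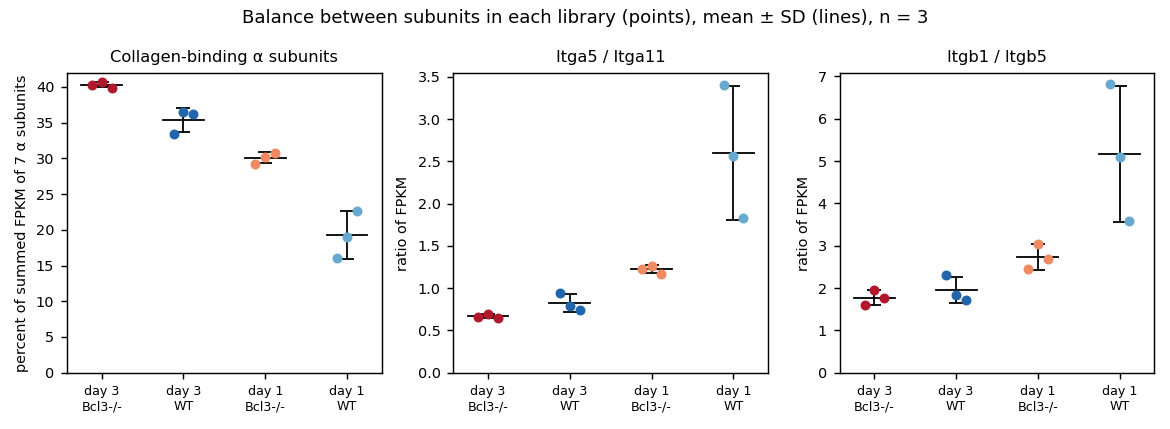
Share of the 4 collagen-binding subunits in the summed FPKM of 7 α subunits (left, percent), and the FPKM ratios Itga5 to Itga11 (middle) and Itgb1 to Itgb5 (right), by library (points) with mean and SD (lines, n = 3). The collagen-binding share is near 40% in day 3 Bcl3-/- and between 16.1 and 22.7% in day 1 WT, and both ratios are highest in day 1 WT.

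The collagens bound by these receptors were described by 10 genes. With time in WT, 6 of 10 rose and 1 of 10 fell, beside 20.6% and 17.9% of all genes, with a median log2 fold change of 0.41. In Bcl3-/- 2 rose and 2 fell, beside 16.2% and 17.2% of all genes, with a median of 0.11. Col3a1 rose at 1.32 and Col1a2 at 1.08 in WT (edgeR adjusted p = 0.000122 and 8.69e-05), beside 0.54 and 0.60 in Bcl3-/- (edgeR adjusted p = 0.0294 and 0.0052). On day 1, 3 of 10 were higher in Bcl3-/-, namely Col3a1 at 1.19, Col1a2 at 0.70 and Col1a1 at 0.47 (edgeR adjusted p = 0.00145, 0.00518 and 0.016), and Col4a1 of the basement membrane was lower at -0.42 (edgeR adjusted p = 0.00738). On day 3 Col4a1 was the 1 of 10 called, again lower at -0.42 (edgeR adjusted p = 0.0117). Of all genes, 9.03% were called higher and 6.26% lower on day 1, and 4.78% and 5.60% on day 3. Col1a1 missed the threshold without day 1 WT replicate 2 or day 1 Bcl3-/- replicate 2 or 3 (edgeR adjusted p = 0.0504 to 0.0704), as did Col3a1 with time in Bcl3-/- without day 1 Bcl3-/- replicate 1 or 3 or day 3 Bcl3-/- replicate 2 or 3 (0.0655 to 0.104), and Col4a1 on day 3 without day 3 WT replicate 1 or day 3 Bcl3-/- replicate 2 (0.0529 to 0.0551). On FPKM values of all genes with a nonzero FPKM the calls of Col1a2 on day 1 and of Col1a2 and Col3a1 with time in Bcl3-/- were lost (limma adjusted p = 0.164, 0.224 and 0.223). The day 3 count of 1 was 2 without any 1 of day 3 Bcl3-/- replicate 3, day 3 WT replicate 3 and day 1 WT replicate 3. The Bcl3-/- time count of 4 was 2 without day 1 Bcl3-/- replicate 1 or 3 and 1 without day 3 Bcl3-/- replicate 2. Col1a1 and Col1a2 also belong to the osteoblast markers.

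Of 17 ligands with RGD or related sites, 16 were tested, and they did not share a direction. Fibronectin itself (Fn1) had 9754, 9361 and 13697 CPM in day 3 Bcl3-/- libraries, against 19396, 11710 and 13505 CPM in day 3 WT. On day 1 Fn1 had 12201, 13243 and 13520 CPM in Bcl3-/- libraries, against 12051, 10135 and 12241 CPM in WT. With the edgeR test over all 12 libraries Fn1 was called in no comparison, but this depended on the setting. On day 3 its genotype difference spanned -0.64 to -0.20 when 1 library was left out, and it was called without day 3 Bcl3-/- replicate 3 (-0.64, edgeR adjusted p = 0.0424) and without a filter on low counts (-0.46, 0.0147). With time in WT it was called without day 3 WT replicate 2 (0.52, edgeR adjusted p = 0.0442) and without a filter (0.39, 0.0197), as was the difference between the time courses without a filter (-0.66, 0.0374). Periostin (Postn), a matrix protein that binds αv integrins, rose with time at 2.18 in WT and 1.38 in Bcl3-/- (edgeR adjusted p = 7.61e-06 and 5.8e-05) and was higher in Bcl3-/- on day 1 at 1.20 (edgeR adjusted p = 0.000908). Thrombospondin 2 (Thbs2) rose at 1.03 in WT and 0.54 in Bcl3-/- (edgeR adjusted p = 0.000172 and 0.0124), the second call lost without day 1 Bcl3-/- replicate 2 (0.0534). Ltbp1, which anchors latent TGFβ, was lower in Bcl3-/- at -1.03 on day 1 and -1.32 on day 3 (edgeR adjusted p = 0.00155 and 0.00112), and Ccn1 fell with time by 1.16 in WT and 1.22 in Bcl3-/- on the log2 scale (edgeR adjusted p = 2.68e-05 and 2.38e-05). In all, 2 of 16 were higher and 3 lower in Bcl3-/- on day 1, beside 9.03% and 6.26% of all genes. On day 3, 1 was higher and 4 lower, beside 4.78% and 5.60% of all genes. With time 4 rose and 4 fell in WT, beside 20.6% and 17.9% of all genes. In Bcl3-/- 2 rose and 4 fell, beside 16.2% and 17.2%. The medians lay between -0.17 and 0.02. The day 1 count of 5 was 3 without any 1 of day 1 WT replicates 1 and 2 and day 1 Bcl3-/- replicates 1 and 2, and 8 without day 1 WT replicate 3.

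The ligand of α8, nephronectin (Npnt), differed between the genotypes in its time course. On day 3 Npnt had 137, 123 and 141 CPM in Bcl3-/- libraries, against 31.0, 52.3 and 57.7 CPM in WT. On day 1 it had 130, 122 and 106 CPM in Bcl3-/- libraries, against 93.1, 118 and 119 CPM in WT. The day 3 WT libraries were below all others, and the day 1 groups overlapped. Npnt was higher in Bcl3-/- on day 3 at 1.51 (SE 0.19, edgeR adjusted p = 0.00135) and fell with time by 1.23 on the log2 scale in WT (SE 0.19, edgeR adjusted p = 0.000302), and the difference between the time courses was 1.39 (SE 0.26, edgeR adjusted p = 0.0335). Osteopontin (Spp1), an RGD ligand of αv integrins, went the other way, with 1600, 1389 and 1094 CPM in day 3 Bcl3-/- libraries, against 3317, 3799 and 3095 CPM in day 3 WT. On day 3 Spp1 was lower in Bcl3-/- at -1.32 (SE 0.16, edgeR adjusted p = 0.00121), and the difference between the time courses was -1.27 (SE 0.22, edgeR adjusted p = 0.0309). Both day 3 differences kept their call without any 1 library. The difference between time courses lost its call in Npnt without any 1 of 8 libraries (edgeR adjusted p = 0.0615 to 0.125), all except day 1 WT replicate 3, day 3 WT replicates 1 and 3 and day 3 Bcl3-/- replicate 1, and in Spp1 without any 1 of 9 (0.0561 to 0.118), all except day 1 WT replicate 3, day 3 WT replicate 3 and day 3 Bcl3-/- replicate 1. With the culture as a block both were called.

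The other integrin subunits formed 2 lists. Of 11 subunits outside the leukocyte integrins, the laminin-binding Itga6 and Itga3 were lower in Bcl3-/- on day 1 and day 3, Itga6 at -0.98 and -0.62 (edgeR adjusted p = 0.000591 and 0.0069) and Itga3 at -0.83 and -1.08 (edgeR adjusted p = 0.03 and 0.0163). Itgb3, a further partner of αv, rose with time at 1.10 in WT and 0.72 in Bcl3-/- (edgeR adjusted p = 0.000185 and 0.00383), as Itgb5 did, while Itgb6, a partner of αv in epithelia, fell by 2.67 and 2.02 on the log2 scale (edgeR adjusted p = 0.000215 and 0.0299). Itga9 was higher on day 1 at 0.60 (edgeR adjusted p = 0.00794) and Itga4 lower on day 3 at -1.18 (edgeR adjusted p = 0.0417). Itga6, Itgb3 and Itga9 kept these calls without any 1 library. The Itga4 call is lost without any 1 of 10 libraries (edgeR adjusted p = 0.0508 to 0.154), all except day 3 Bcl3-/- replicate 1 and day 1 Bcl3-/- replicate 1. Itga3 lost its day 1 call without day 1 WT replicate 1 or 2 or any 1 day 1 Bcl3-/- replicate (0.0672 to 0.12) and its day 3 call without day 3 WT replicate 1 or day 3 Bcl3-/- replicate 2 (0.0701 to 0.0752), and Itgb6 its Bcl3-/- call without day 1 or day 3 Bcl3-/- replicate 1 or 3 (0.0616 to 0.101) and with the culture as a block (0.06). On FPKM values of all genes with a nonzero FPKM the calls named here were lost in Itga3, Itga4, Itga9 and Itgb6. In all, 1 of 11 was higher and 3 lower in Bcl3-/- on day 1, beside 9.03% and 6.26% of all genes. On day 3, 0 were higher and 3 lower, beside 4.78% and 5.60% of all genes. With time 2 rose and 2 fell in WT, beside 20.6% and 17.9% of all genes. In Bcl3-/- 3 rose and 4 fell, beside 16.2% and 17.2%. The medians were 0.16, -0.62, -0.16 and -0.19 in the same order. The day 3 count of 3 was 1 without day 3 WT replicate 1 or day 3 Bcl3-/- replicate 2, and the Bcl3-/- time count of 7 was 4 without any 1 of day 1 Bcl3-/- replicates 2 and 3 and day 3 Bcl3-/- replicate 2. Of the leukocyte integrins, 5 of 6 were tested, and Itgam and Itgb2 rose in WT at 1.04 and 0.73 (edgeR adjusted p = 0.0299 and 0.0334) beside the macrophage markers given above, with the call lost for Itgam without day 1 WT replicate 1 or 2 or day 3 WT replicate 3 (0.105 to 0.162) and for Itgb2 without any 1 of day 3 WT replicates 1, 2 and 3, day 1 WT replicates 1 and 2 and day 1 Bcl3-/- replicate 2 (0.0501 to 0.15). Itgal was the 1 of 5 lower in Bcl3-/- on day 3, and Itgal and Itgax were the 2 of 5 lower with time in Bcl3-/-, the first call lost without day 3 WT replicate 1 or 3 or day 3 Bcl3-/- replicate 2 or 3 (edgeR adjusted p = 0.0628 to 0.128) and both calls with time without day 3 or day 1 Bcl3-/- replicate 2 or 3 (0.0518 to 0.112). With the culture as a block the day 3 call of Itgal (0.0627) and the call of Itgax (0.0561) were lost, and without day 3 Bcl3-/- replicate 1 the day 3 count was 4 of 5. Among 4 other collagen receptors tested of 5, Ddr1 fell with time by 0.67 in WT and 0.45 in Bcl3-/- on the log2 scale (edgeR adjusted p = 0.000324 and 0.00578), Mrc2 and Lair1 rose in WT, and 0 of 4 differed by genotype on either day by edgeR, with 1 of 4 at an unadjusted p under 0.05 on each day. The share of all genes at that unadjusted level is not given here. The rise of Lair1, at 1.03, was 0.40 to 0.61 and not called in the 3 tests on FPKM values (limma adjusted p = 0.156 to 0.372). By genotype 1 of 4 was called lower on day 1 without day 1 WT replicate 3, and 1 of 4 on day 3 by DESeq2, with the culture as a block and without day 3 Bcl3-/- replicate 1 or 3.

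Talins, kindlins and focal adhesion proteins link integrins to actin, and 30 of 31 such genes were tested. On day 1, 1 was higher and 7 were lower in Bcl3-/-, beside 9.03% and 6.26% of all genes, but 0 were called without day 1 WT replicate 1, and 3, all lower, without any 1 of day 1 WT replicate 2 and day 1 Bcl3-/- replicates 1, 2 and 3. On day 3, 0 were higher and 4 lower, beside 4.78% and 5.60% of all genes. The day 3 count was 1 without day 3 WT replicate 1, 2 without day 3 Bcl3-/- replicate 2 or day 1 Bcl3-/- replicate 2, 0 in the fit on the 6 day 3 libraries alone and 7 with DESeq2. Kindlin-2 (Fermt2), which activates β1, was lower on day 1 and day 3 at -0.36 and -0.43 (edgeR adjusted p = 0.0138 and 0.00863). On day 1 the list included the actin adaptors zyxin (Zyx) at -0.42 and vinculin (Vcl) at -0.36 (edgeR adjusted p = 0.0182 and 0.0284) and Parvb at -0.83 (edgeR adjusted p = 0.0202), and on day 3 the α-actinins Actn4 at -0.35 and Actn1 at -0.38 (edgeR adjusted p = 0.0126 and 0.0273). The day 3 call of Fermt2 held without any 1 library but not in the fit on 6 libraries (0.0513). Calls were lost for Fermt2 on day 1 and for Zyx without day 1 WT replicate 1 or day 1 Bcl3-/- replicate 2 (edgeR adjusted p = 0.0505 to 0.0643), for Vcl without day 1 WT replicate 1 or day 1 Bcl3-/- replicate 1 or 3 (0.0717 to 0.0908), for Parvb without day 1 WT replicate 1 or 2 or day 1 Bcl3-/- replicate 3 (0.0728 to 0.0814), for Actn4 on day 3 without day 3 WT replicate 1 or day 3 Bcl3-/- replicate 2 (0.0546 to 0.0573), and for Actn1 on day 3 without any 1 day 1 Bcl3-/- replicate or day 3 WT replicate 1 or 3 (0.0523 to 0.109), while every call named here on day 1 was lost without day 1 WT replicate 1. With time 3 rose and 8 fell in WT, beside 20.6% and 17.9% of all genes. In Bcl3-/- 3 rose and 11 fell, beside 16.2% and 17.2% of all genes. Among those that fell was Actn4, at -0.50 in WT and -0.59 in Bcl3-/- (edgeR adjusted p = 0.000291 and 0.000151). The WT count of 11 was 4 to 6 without any 1 of day 1 WT replicates 1 and 2 and day 3 WT replicates 2 and 3, and the Bcl3-/- count of 14 was 9 without day 1 Bcl3-/- replicate 1 and 8 without day 1 Bcl3-/- replicate 2. The medians of the list were small, at -0.09, -0.13, -0.14 and -0.04 in the 4 comparisons. The smooth muscle markers, which are actin genes in part, were lower too, with 4 of 10 on day 1 and 5 of 10 on day 3 lower in Bcl3-/- and 1 of 10 higher on each day.

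Of 12 membrane partners of integrins, 3 were higher and 3 lower in Bcl3-/- on day 1, beside 9.03% and 6.26% of all genes. On day 3, 0 were higher and 3 lower, beside 4.78% and 5.60% of all genes. With time 5 rose and 4 fell in WT, beside 20.6% and 17.9% of all genes. In Bcl3-/- 2 rose and 3 fell, beside 16.2% and 17.2%. Caveolin-1 (Cav1) was lower in Bcl3-/- at -0.47 on day 1 and -0.93 on day 3 (edgeR adjusted p = 0.0177 and 0.00138) and fell with time by 1.06 in WT and 1.52 in Bcl3-/- on the log2 scale (edgeR adjusted p = 3.8e-05 and 4.41e-06). Syndecan-4 (Sdc4), a coreceptor of α5β1 on fibronectin, was lower on day 1 and day 3 at -0.50 and -0.36 (edgeR adjusted p = 0.00465 and 0.0297). The day 1 call of Cav1 is lost without day 1 WT replicate 1 or 2 or day 1 Bcl3-/- replicate 1 or 2 (0.0507 to 0.0696), and the day 3 call of Sdc4 without any 1 of 8 libraries (0.0541 to 0.13), all except day 3 WT replicate 3 and the 3 day 1 WT replicates. The day 3 count of 3 was 1 without any 1 of day 3 WT replicates 1 and 2 and day 3 Bcl3-/- replicate 2. Lgals3bp, a secreted ligand of integrins and galectins, was higher on day 1 at 1.68 (edgeR adjusted p = 0.00336). The tetraspanin Cd82 had 32.5, 26.7 and 26.7 CPM in day 3 Bcl3-/- libraries, against 30.2, 37.2 and 32.0 CPM in day 3 WT, and 31.0, 29.8 and 31.1 CPM in day 1 Bcl3-/- libraries, against 20.2, 20.0 and 22.9 CPM in day 1 WT. The day 1 WT libraries were the lowest, and Cd82 was higher in Bcl3-/- on day 1 at 0.54 and rose with time in WT at 0.66 (edgeR adjusted p = 0.00481 and 0.000367), with a difference between the time courses of -0.75 (edgeR adjusted p = 0.0353). Cd47, a thrombospondin receptor, followed the same pattern at 0.38, 0.37 and -0.48 (edgeR adjusted p = 0.00347, 0.00117 and 0.0373). The difference between the time courses lost its call without any 1 of 10 libraries in both genes (edgeR adjusted p = 0.0602 to 0.148 for Cd82 and 0.0656 to 0.188 for Cd47), all except day 3 Bcl3-/- replicate 1 and day 1 WT replicate 3. With the culture as a block the Cd47 difference was -0.48 and not called (edgeR adjusted p = 0.0647), while that of Cd82 was called.

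**Figure D5:**
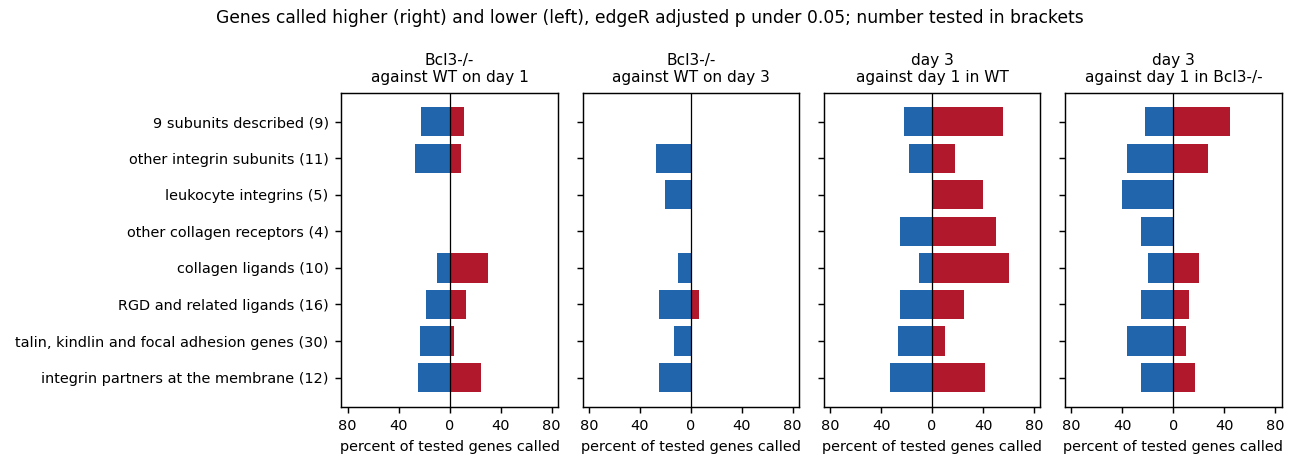
Percent of tested genes called higher (red, right of 0) and lower (blue, left of 0) at an edgeR adjusted p under 0.05 in the 9 subunits and in 7 related lists, with the number tested in brackets. Talin, kindlin and focal adhesion genes have 7 of 30 lower and 1 higher on day 1, of which none is called without day 1 WT replicate 1, and collagens lie mostly right of 0 with time in WT, where 6 of 10 rose. Of all genes tested, 9.03% were called higher and 6.26% lower on day 1, and 20.6% higher and 17.9% lower with time in WT. The shares were 4.78% higher and 5.60% lower on day 3, and 16.2% higher and 17.2% lower with time in Bcl3-/-.

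Across the 12 libraries, which include both the genotype and the time differences, the subunits fell into sets that moved together. As a description of log2 CPM, Itga5 and Itgb1 had a Pearson r of 0.97, Itga8 and Itgb5 of 0.95, Itga10 and Itga8 of 0.94, and Itga11 and Itgb5 of 0.93, whereas Itga5 had an r of -0.86 with both Itga10 and Itgb5. Among all genes whose mean reached 1 log2 CPM, the 3 nearest patterns to Itga5 were Txnrd1, M6pr and Psme3 (r = 0.99 each), to Itgb1 Eaf1, Nup88 and Wdr43 (0.99, 0.99 and 0.98), and to Itgav Pde4dip, Qk and Lrrk2 (0.99 each). Those nearest to Itga11 were Parp14, Ifih1 and Myo7a (0.98 each), to Itga10 Tmem170b, Gpcpd1 and Grn (0.98, 0.96 and 0.96), and to Itga8 Dab2, Glrb and Nkiras2 (0.98 each). Itgb5 was nearest to the matrix ligand Thbs2, Lrrc8b and Stard4 (0.98, 0.97 and 0.97), and Itga2 to Chmp1a, 1600012H06Rik and Lrif1 (0.95, 0.95 and 0.94). Itga1 was nearest to Sox9, the chondrocyte transcription factor, Zfp281 and Zfp84 (0.90, 0.88 and 0.88).

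The start regions of 4 genes are shown because these genes moved in opposite directions. They are Itga5, Itgb1 and Itga11, which had the called genotype differences, and Itgb5, the β subunit of the 9 that rose with time. Each line gives the 160 bases before the RefSeq transcription start on GRCm38.p6, 5′ to 3′ on the strand of the gene, with the GC box GGGCGG or its reverse complement CCGCCC in capitals. The windows are chr15:103366792-103366951 (minus strand) for Itga5, chr8:128685494-128685653 (plus) for Itgb1, chr9:62677695-62677854 (plus) for Itga11 and chr16:33829505-33829664 (plus) for Itgb5.
Itga5: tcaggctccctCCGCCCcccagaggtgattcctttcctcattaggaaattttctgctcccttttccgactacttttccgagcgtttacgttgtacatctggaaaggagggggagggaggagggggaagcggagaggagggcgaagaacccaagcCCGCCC
Itgb1: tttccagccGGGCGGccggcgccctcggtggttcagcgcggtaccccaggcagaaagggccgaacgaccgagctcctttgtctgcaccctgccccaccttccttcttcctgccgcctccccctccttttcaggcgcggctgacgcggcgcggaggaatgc
Itga11: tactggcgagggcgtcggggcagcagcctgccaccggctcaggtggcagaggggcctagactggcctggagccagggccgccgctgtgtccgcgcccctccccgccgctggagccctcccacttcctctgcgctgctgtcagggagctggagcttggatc
Itgb5: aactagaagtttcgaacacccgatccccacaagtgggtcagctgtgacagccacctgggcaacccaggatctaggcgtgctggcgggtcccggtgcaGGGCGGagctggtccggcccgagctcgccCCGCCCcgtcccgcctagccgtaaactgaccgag
Itga5 holds 2 GC boxes in this stretch, Itgb5 holds 2, Itgb1 holds 1 and Itga11 holds none. Whether the motif bears on the directions was not tested. In the window from 250 bases before to 50 after the start, searched on both strands, GGGCGG occurred in 5 of the 9 subunits (Itga2, Itga5, Itgav, Itgb1 and Itgb5), beside 35.7% of 32851 RefSeq promoters. In the 250 bases before the start, G and C made up 48.0% in Itga10 and 55.6 to 68.4% in the other subunits. The median of all promoters was 52.4%, and the shares of matches were not adjusted for this. The AP-1 motif TGANTCA occurred in 0 of 9, beside 7.81%, CCAAT in 0 of 9, beside 37.4%, TATAAA in 0 of 9, beside 13.6%, and the NF-κB consensus in 0 of 9, beside 8.46%. The TEAD motif GGAATG occurred in 2 of 9 (Itga10 and Itgb1), beside 14.7%, the E box CANNTG in 5 of 9, beside 72.3%, and the CArG box of serum response factor in 0 of 9, beside 1.63%. These are letter matches and say nothing of binding.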

How the data were processed

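RNA of 12 libraries (4 groups of 3) from 6 calvarial osteoblast cultures was made into cDNA with the SMART-seq v4 kit, which does not mark strand. Reads from a gene and its antisense partner therefore cannot be told apart. The authors used FastQC, Trim Galore, TopHat2 (GRCm38), HTSeq for the deposited counts per gene and Cufflinks for the deposited FPKM values, and tested with DESeq2. Tool versions, the annotation release and the strand setting of the counting are not given in the sources used here. The count table held 49585 genes, and 5 non-gene lines that took 12.3 to 14.7% of each library were left out. The FPKM table held 49318 genes after 49 lines with extra values and 1 stray header were left out.

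The 9 members and all lists were chosen with earlier results of these data known. Genes passing filterByExpr (16318) were scaled by TMM (factors 0.951 to 1.05) and fitted over all 12 libraries with edgeR's quasi-likelihood test (biological coefficient of variation 13.5%, prior count of 2 for CPM on the log2 scale), with Benjamini-Hochberg adjustment over all genes tested and a threshold of 0.05. This replaces the DESeq2 test of the authors, which was run as an alternative. SE is that of the log2 fold change. p-values measure the spread between replicates, each of 1 to 3 calvariae by the labels and of 3 by the methods text. Named genes are the 9 subunits, Bcl3, the called members of each list with the smallest p, up to 4 a list in each direction, and the 3 genes with the nearest pattern to each subunit. Fn1 and a few further list members were named after their values were seen. Alternatives were DESeq2, RLE and upper-quartile scaling, other filters, fits on 6 libraries, limma on log2(FPKM + 1) and log2(FPKM + 0.1), a fold threshold of 1 on the log2 scale, replicate blocks and each library left out, 24 settings in all. The scripts were checked on simulated data.

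The codes in the labels pair the 2 days of a culture. For libraries with the same number, residuals after removing the group mean had an r of 0.24 to 0.33 between the days in WT, -0.16 to -0.02 between the days in Bcl3-/-, -0.06 to 0.04 between the genotypes on day 1 and 0.06 to 0.21 on day 3. For libraries with different numbers, r between the days was -0.24 to 0.02 in WT and -0.10 to 0.23 in Bcl3-/-. The residuals thus followed the pairing of the codes in WT and did not in Bcl3-/-. The culture was a fixed block for time, and for genotype a random effect in limma voom with a correlation of 0.197. Coordinates are those of GENCODE M21, and start regions those of RefSeq on GRCm38.p6. Versions were R 4.3.3, edgeR 4.0.16, limma 3.58.1, DESeq2 1.42.0, Python 3.11.15, numpy 2.4.6, pandas 2.3.3 and matplotlib 3.10.9.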

Additional observations from a re-analysis of the deposited data

Results flagged for a closer look

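Of the 9 subunits and the related lists, 4 genes, none of them among the 9, passed the edgeR test of whether the change with time differed between Bcl3-/- and WT, and they are given here for that reason. Of all genes tested, 1.12% passed it in either direction. The difference of the log2 changes, Bcl3-/- minus WT, was 1.39 for Npnt, the ligand of α8, and -1.27 for Spp1, an RGD ligand. For the membrane partners it was -0.75 for Cd82 and -0.48 for Cd47. With limma on log2(FPKM + 1) over all genes with a nonzero FPKM the call was lost in all 4, and in edgeR it was lost in each without any 1 of 8 to 10 of the 12 libraries. With the culture as a block Cd47 missed the threshold (edgeR adjusted p = 0.0647).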

How the results depend on the processing

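The 9 subunits gave 3 calls by genotype on day 1, 0 on day 3, 7 with time in WT, 6 with time in Bcl3-/- and 0 for the difference between time courses. Without a filter on low counts these were 5, 2, 8, 7 and 1. DESeq2 gave 1 call on day 3 and 1 for the difference between time courses. Limma gave 3 with time in Bcl3-/- on log2(FPKM + 1) and on log2(FPKM + 0.1), and 1 on day 3 on genes of at least 1 FPKM. A log2 fold change over 1 left 0 on day 1, 3 in WT and 1 in Bcl3-/-. Leaving out 1 library gave 2 to 6 on day 1, 0 to 1 on day 3, 7 to 8 in WT, 3 to 7 in Bcl3-/- and 0 to 1 for the difference. The causes were not tested. The share of all genes called under each alternative setting is not given in this report. Counts under those settings are therefore not set against it.

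With the culture as a replicate block the 5 counts were 3, 1, 8, 7 and 0, the calls gained being Itgav on day 3, Itgav in WT and Itgb1 in Bcl3-/-. Among the calls named outside the 9, the block ended those of Cd47 for the difference between time courses, Itgal on day 3, and Itgb6 and Itgax with time in Bcl3-/-. With the title number as a block the 5 counts of the 9 subunits were 5, 0, 7, 6 and 0.

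Among the 9 subunits and the named list genes, directions turned where the difference was not called, and in Col1a1 only through FPKM values listed at 0. By genotype on day 3, Itga2 (0.01) was -0.00768 without a filter, -0.0547 with the culture block, -0.0124 and -0.0414 on FPKM with a pseudocount of 1 and 0.1, and -0.27 to 0.24 without 1 library. Itga8 (0.01) was -0.0136, -0.00751, -0.0102 and -0.0117 under the same 4 settings, -0.0102 on filtered FPKM, and -0.13 to 0.16 without 1 library. Itga10 (-0.16) was 0.0687 and 0.111 on FPKM and 0.0687 on filtered FPKM. Without 1 library Itga1 with time in Bcl3-/- spanned -0.14 to 0.15, the Itgav difference between time courses -0.22 to 0.0506, and Bcl3 on day 1 -0.0898 to 0.0677. Col1a1, called higher by edgeR, was -3.98 and -5.09 on FPKM with a pseudocount of 1 and 0.1, both by genotype on day 1 and with time in WT, where its FPKM is listed at 0 in 10 of 12 libraries. Its CPM from counts was high, as given above for day 1 WT, so these FPKM values do not measure its level or direction. The balance between subunits recomputed from CPM per kilobase of exon, and all settings applied to genes and lists outside the 9, were chosen after seeing the data.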
